A study of Mus musculus with 39 samples.

Results

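Ret, the tyrosine kinase receptor shared by the GDNF family, and 3 of its co-receptors, Gfra1, Gfra2 and Gfra3, were followed across sorted newborn and whole adult dorsal root ganglia (DRG) of the mouse. The genes were chosen by symbol. Every probe set of the deposited table that names 1 of them alone was taken, which gave 4 of the 18193 genes with a probe set of their own and 11 of the 45037 probe sets tested, 2 for Ret, 3 for Gfra1, 5 for Gfra2 and 1 for Gfra3. All 11 entered the tests and none was lost to a filter on low values. For each gene the probe set with the highest mean over the 39 arrays stands for it, namely 1436359_at for Ret, 1439015_at for Gfra1, 1433716_x_at for Gfra2 and 1418880_at for Gfra3. The others are given beside it, and a level is read only within a probe set, since probes differ in brightness. All values are log2 RMA intensities.

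The study compared proprioceptors with the other cells of the ganglion and asked how their transcription responds to neurotrophin 3 (NT3), the muscle-derived factor on which proprioceptors depend. Newborn (P0) cells came from mice of the 129/C57Bl6 background that all carried the TrkCGFP transgene, wild-type mice included. They were sorted into GFPon cells, which hold most proprioceptors, and GFPoff cells, which hold the rest of the sorted suspension. By the study's counts in newborn ganglia, some Runx3-positive neurons and many TrkC-positive cells lacked GFP, so GFPoff cells include neurons with TrkC. Lumbar levels L1 to L6 were pooled, with 2 arrays a group and 350 cells a sample, for wild-type, Bax-/-, NT3-/-Bax-/- and mlcNT3 mice. Separate wild-type sorts of 100 cells covered L1 and L5, with 3 arrays a group and 2 for L1 GFPon. Whole L1 and L5 DRG of adult wild-type mice, males that were 5 weeks old at the start by the study's methods, kept with a running wheel for 5 weeks or without one gave 3 arrays a group. Several features limit these groups as models. Bax-/- removes a gene needed for neuronal death, so that neurons without NT3 survive to be sorted, and Bax-/- mice are therefore the control for NT3-/-Bax-/- mice. mlcNT3 adds NT3 under a myosin light chain promoter of skeletal muscle. By the study's methods, these mice also have more proprioceptive neurons in their lumbar DRG. The GFP comes from a transgene on a bacterial artificial chromosome and not from the TrkC locus itself. In the annotation used here no probe set names Bax or Ntf3 (NT3) alone, so the knockouts were not checked. The strain of the adult mice is 129/C57Bl6 in the labels and C57Bl6 in the study's methods. The adult samples carry a TrkC sign in their titles, yet they were whole ganglia and had no GFP in the genotype label.

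Ret is a receptor tyrosine kinase that binds its ligands only together with a co-receptor of the GFRα family, which is held to the membrane by a lipid anchor and has no kinase of its own. Gfra1 is the preferred partner of GDNF, Gfra2 of neurturin (Nrtn) and Gfra3 of artemin (Artn). In DRG, Ret is known from nonpeptidergic nociceptors and from rapidly adapting mechanoreceptors, Gfra2 from both of these classes and Gfra3 mainly from peptidergic nociceptors, whereas proprioceptors depend on TrkC (Ntrk3) and NT3.

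The sort was checked against markers. In wild-type pooled samples all 5 measured proprioceptor markers were higher in GFPon cells (median log2 difference 5.63, against -0.07 over all probe sets), and 4 of 6 nonpeptidergic nociceptor markers were lower. The markers of Ret-positive mechanoreceptors were split, with Shox2 (3.12) and Maf (2.01) higher in GFPon cells and Npy2r (-3.28) and Th (-2.43) lower, 4 of 6 in all, and their sum was higher in GFPon cells (13.77 and 13.76 against 12.12 and 12.39). The NT3-/-Bax-/- GFPoff arrays stood apart. The summed fibroblast markers reached 14.80 and 15.40 in them, against 10.71 to 11.62 in the other 6 GFPoff arrays, and the summed endothelial and glial markers lay above every other GFPoff array too. Array medians ran from 6.02 to 6.18, and replicate arrays correlated at 0.972 or above, with the lowest value in NT3-/-Bax-/- GFPoff cells. Nothing states that the samples of a group came from separate litters, so the p-values measure the spread between these samples, and with bulk samples fewer cells of a type and less RNA per cell cannot be told apart. A probe set was called at a limma adjusted p under 0.05 over all 45037 probe sets.

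Ret, Gfra1 and Gfra3 were lower in GFPon than in GFPoff cells of wild-type newborn mice, by 4.69- to 7.77-fold, and Gfra2 was not called. This is 3 of the 4 genes and 4 of the 11 probe sets, where 8.95% of all probe sets were called. Ret, the shared receptor, read 10.06 and 9.30 in the GFPon arrays and 12.30 and 12.26 in the GFPoff arrays. The 2 populations did not overlap, and the difference was -2.60 (SE 0.45, adjusted p = 0.00273). The second probe set of Ret, 1421359_at, read 7.28 and 6.91 against 8.93 and 8.95, and it was 3.58-fold lower in GFPon cells.

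Gfra1, the GDNF co-receptor, read 8.04 and 7.75 in wild-type GFPon arrays and 10.13 in both GFPoff arrays, a difference of -2.23 (SE 0.31, adjusted p = 0.000616). Its fainter probe sets had GFPon means of 4.51 against 5.81 for 1450440_at and 4.64 against 5.42 for 1421973_at. Gfra3, the artemin co-receptor, read 9.36 and 9.13 in GFPon arrays and 12.17 and 12.23 in GFPoff arrays, which gave the largest of the 4 differences, -2.96 (SE 0.17, adjusted p = 1.68e-06). Both genes thus had each GFPon array below each GFPoff array. Gfra2, the neurturin co-receptor, read 11.39 and 11.12 in GFPon arrays and 11.66 and 11.34 in GFPoff arrays. These values overlapped, and its difference of -0.25 had a 95% interval of -0.93 to 0.43 (adjusted p = 0.724). The lower end of this interval lies above the differences of Ret, Gfra1 and Gfra3, and it still allows a drop of nearly 1 log2 unit. The methods' test at its own threshold called 2 of the 4 genes in this comparison.

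**Figure D1:**
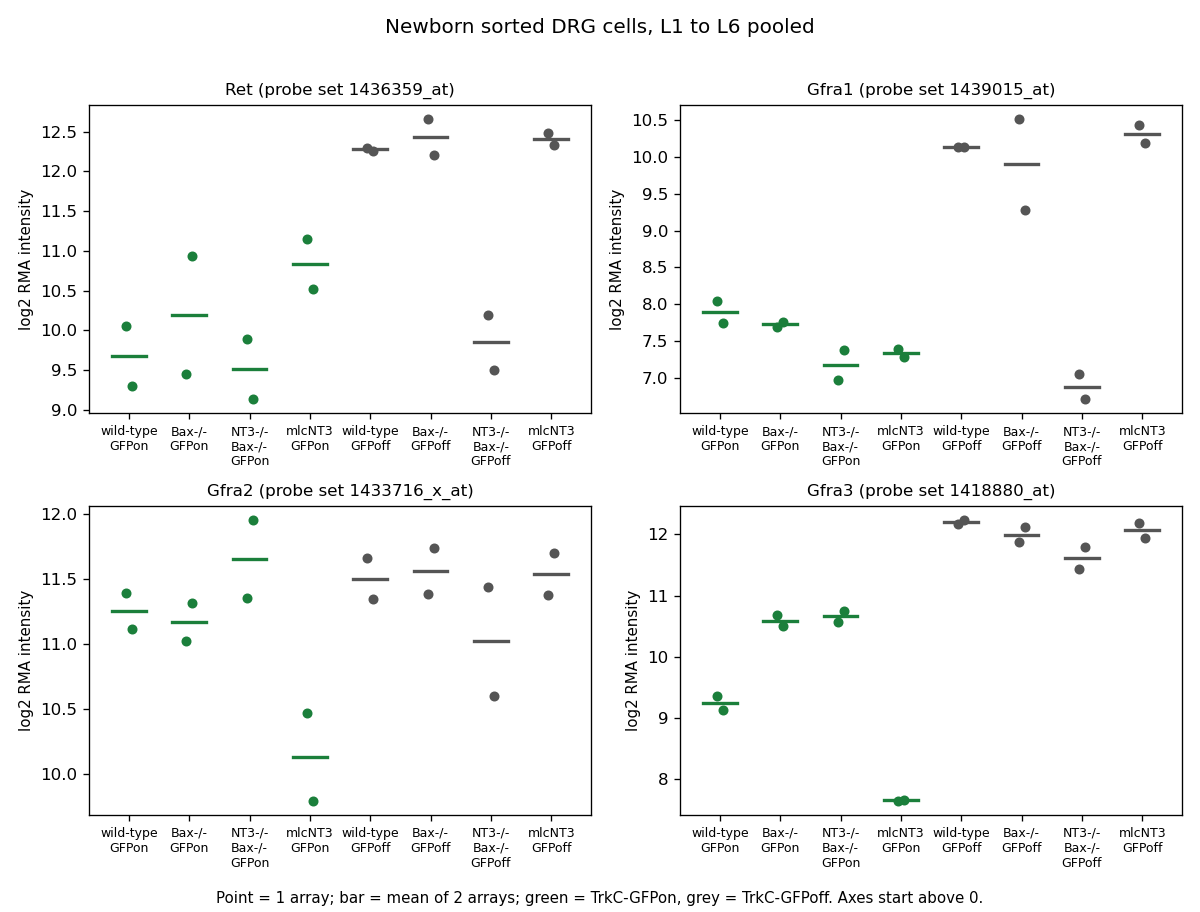
Log2 RMA intensity of Ret, Gfra1, Gfra2 and Gfra3 in pooled newborn samples, 1 panel a gene. Points are arrays, bars are means of 2 arrays, green is GFPon and grey is GFPoff. NT3-/-Bax-/- GFPoff arrays lie at 10.20 and 9.50 for Ret and at 7.06 and 6.71 for Gfra1, below all other GFPoff arrays, and Gfra3 in mlcNT3 GFPon arrays lies at 7.64 and 7.66, below all other arrays.

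The separate L1 and L5 sorts, which shared no array with the pooled ones, gave lower values in GFPon cells for all 4 genes at both levels, with 8 of the 11 probe sets called at each. Over all probe sets 17.9% were called at L1 and 19.9% at L5. Ret read 8.76 and 8.79 in L1 GFPon arrays and 12.84, 12.85 and 12.79 in L1 GFPoff arrays, a 16.6-fold difference (log2 difference -4.05, SE 0.30, adjusted p = 5.18e-06). At L5 it read 8.45, 9.89 and 9.35 in GFPon arrays against 12.94, 12.91 and 12.77, a 12.5-fold difference (adjusted p = 4.27e-06). The GFPoff arrays kept within 0.2 log2 units of each other at each level, and the GFPon arrays at L5 were the more scattered.

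Gfra1 read 5.78 and 5.10 in L1 GFPon arrays and 9.14, 9.33 and 9.53 in L1 GFPoff arrays, and at L5 it read 5.22, 5.95 and 5.88 against 9.55, 9.47 and 9.52. The differences were -3.89 at L1 (SE 0.24, adjusted p = 1.53e-06) and -3.83 at L5 (SE 0.22, adjusted p = 7.93e-07). All of its GFPon values in these sorts lay under the array medians. Both fainter probe sets of Gfra1 were lower in GFPon cells too, by 2.00- and 1.61-fold at L1 and by 1.76- and 1.72-fold at L5.

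Gfra2 was called in the L1 and L5 sorts, with smaller differences than those of Ret and Gfra1. It read 10.43 and 10.57 in L1 GFPon arrays and 11.37, 11.20 and 11.44 in L1 GFPoff arrays, and 10.27, 10.47 and 10.19 against 10.90, 10.95 and 11.22 at L5. The differences were -0.83 at L1 (SE 0.15, adjusted p = 0.00222) and -0.72 at L5 (SE 0.13, adjusted p = 0.00263), and no GFPon array reached a GFPoff array. The 5 probe sets of Gfra2 did not behave alike. Another x_at probe set, 1459847_x_at, fell with 1433716_x_at, by 1.85-fold at L1 and 1.52-fold at L5, while 1423007_a_at gave -0.16 and -0.26 and was not called at either level. The remaining probe sets had positive differences that were not called, 0.25 at both levels for 1425579_at and 0.27 and 0.06 for 1425578_a_at. Probe sets with the ending x_at can match transcripts of other genes, and both that carried the Gfra2 calls are of this kind.

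Gfra3 read 10.34 and 10.51 in L1 GFPon arrays and 11.63, 11.86 and 11.90 in L1 GFPoff arrays, a difference of -1.37 (SE 0.20, adjusted p = 0.000566). At L5 it read 9.46, 10.06 and 9.35 against 11.94, 11.91 and 12.07, a difference of -2.35 (SE 0.18, adjusted p = 4.54e-06). Gfra3 was thus further apart between populations at L5 than at L1, through its GFPon values, but the test of this difference between levels gave -0.98 (SE 0.26, adjusted p = 0.335). In GFPon cells alone, L5 minus L1 was -0.80 (95% interval -1.23 to -0.36, adjusted p = 0.157) without overlap of the 2 levels. None of the 4 genes was called between levels. The share of all probe sets called was 0.397% in GFPon cells, 0.16% in GFPoff cells and 0.0666% for the difference between populations. At an unadjusted p under 0.05 it was 1 of 4 genes in each of these, beside 9.39%, 5.3% and 6.8% of all probe sets. The methods' test at its own threshold called 0 of the 4 between levels in either population.

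**Figure D2:**
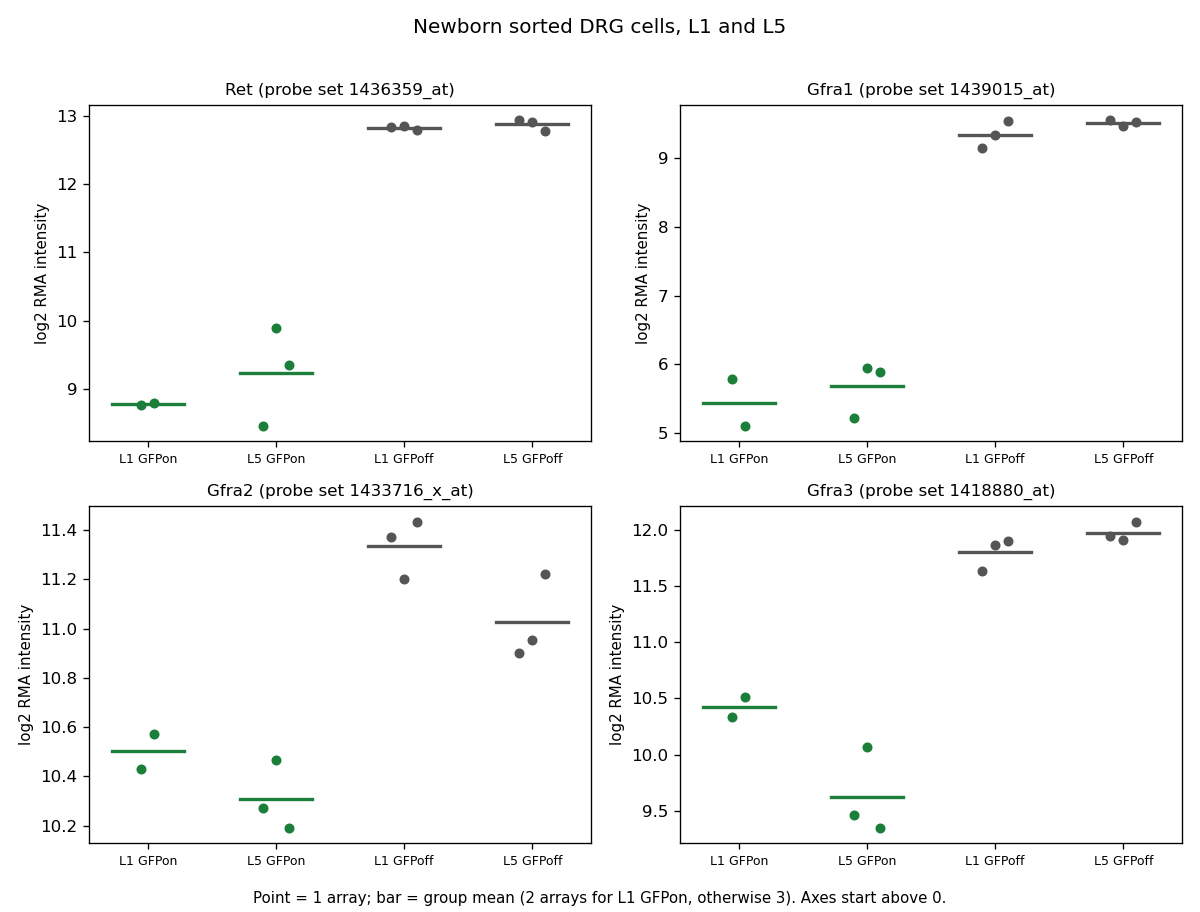
Log2 RMA intensity of the 4 genes in newborn wild-type L1 and L5 sorts, with points for arrays and bars for group means of 3 arrays (2 for L1 GFPon). All GFPon arrays lie below all GFPoff arrays for each gene, and Gfra3 in L5 GFPon arrays (9.35 to 10.06) lies below the L1 GFPon arrays (10.34 and 10.51).

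In Bax-/- mice the same 3 genes were lower in GFPon than in GFPoff cells (4 of 11 probe sets, against 7.82% of all). Ret read 9.45 and 10.94 against 12.66 and 12.20 (difference -2.24, SE 0.45, adjusted p = 0.00846). Gfra1 read 7.70 and 7.76 against 10.52 and 9.28 (difference -2.17, SE 0.31, adjusted p = 0.000861). The replicates of Ret in GFPon cells and of Gfra1 in GFPoff cells were more than 1 log2 unit apart. The call of Ret was lost without Bax-/- GFPon replicate 1 (difference -1.50, adjusted p = 0.0672) and without GFPoff replicate 1 (adjusted p = 0.0799). Fitted on these groups alone, neither Ret (adjusted p = 0.111) nor Gfra1 (adjusted p = 0.075) was called, and the methods' test called 1 of 4 genes. Gfra3 read 10.68 and 10.50 against 11.87 and 12.12, a difference of -1.41 (SE 0.17, adjusted p = 0.000305). Gfra2 read 11.02 and 11.31 against 11.39 and 11.74, a difference of -0.40 (95% interval -1.08 to 0.29, adjusted p = 0.599).

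In mlcNT3 mice all 4 genes were lower in GFPon cells, with 7 of 11 probe sets called against 10% of all, and 2 of 4 genes called by the methods' test. Gfra3 had the widest separation of the 4 genes in any sort, 7.64 and 7.66 in GFPon arrays against 12.18 and 11.95 in GFPoff arrays, which is 21.3-fold (log2 difference -4.41, SE 0.17, adjusted p = 1.15e-07). Gfra1 read 7.40 and 7.29 against 10.42 and 10.19, a 7.80-fold difference (adjusted p = 7.68e-05). The remaining calls were weaker. Ret read 11.15 and 10.52 against 12.48 and 12.33, and its difference of -1.57 (SE 0.45, adjusted p = 0.0455) was not called once any 1 of the 4 arrays was left out (adjusted p 0.0725 to 0.312). Gfra2 read 10.47 and 9.79 against 11.38 and 11.70, a difference of -1.41 (SE 0.31, adjusted p = 0.0126), and it was not called without replicate 2 of GFPon (adjusted p = 0.145) or of GFPoff cells (adjusted p = 0.108). Its probe set 1423007_a_at gave -0.24 (adjusted p = 0.649).

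In NT3-/-Bax-/- mice Gfra3 was the only gene called between the populations. It read 10.57 and 10.74 in GFPon arrays against 11.43 and 11.80 in GFPoff arrays (difference -0.96, SE 0.17, adjusted p = 0.00218). This was 1 of 4 genes and 1 of 11 probe sets, where 19.3% of all were called, and it was not called on these groups alone (adjusted p = 0.104) or by the methods' test. Ret read 9.89 and 9.13 against 10.20 and 9.50, and Gfra1 read 6.97 and 7.38 against 7.06 and 6.71. Both genes overlapped between the populations, with differences of -0.34 (95% interval -1.31 to 0.64) and 0.29 (-0.39 to 0.97). Gfra2 read 11.36 and 11.95 against 11.44 and 10.60, a difference of 0.63 (95% interval -0.05 to 1.32, adjusted p = 0.197).

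**Figure D3:**
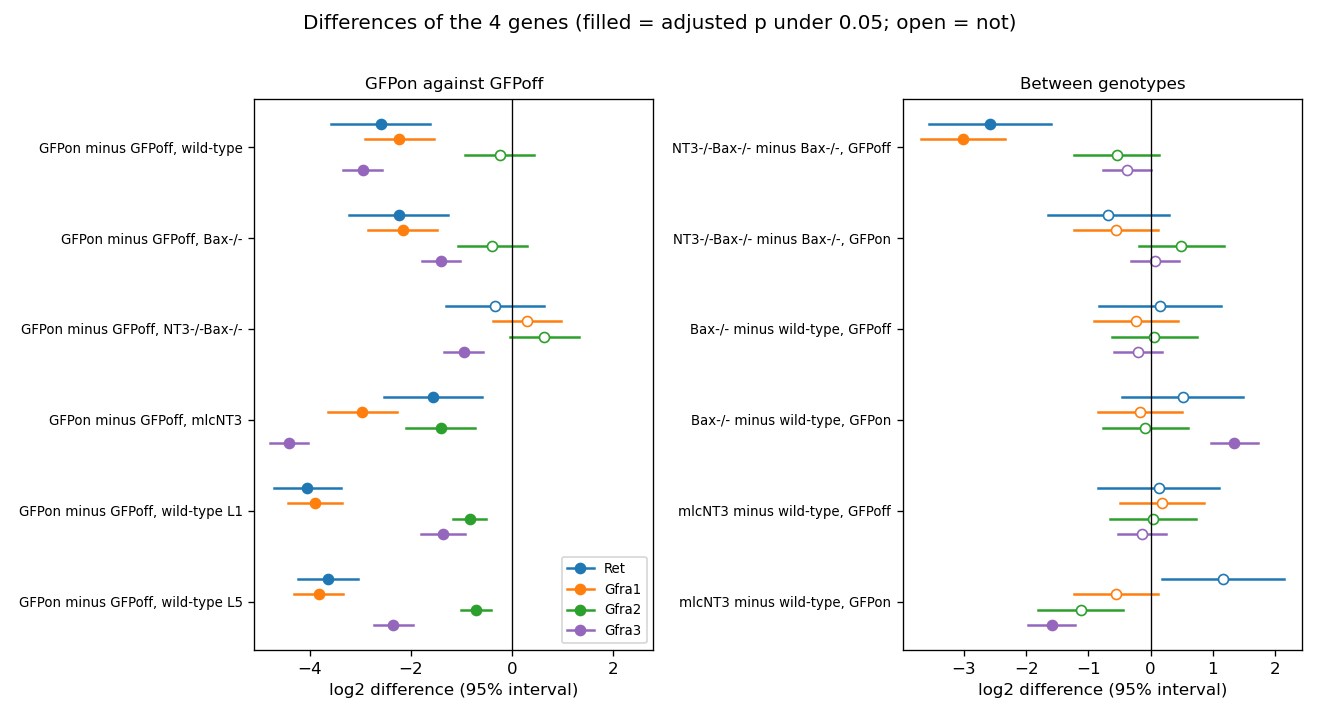
Log2 differences of the 4 genes with 95% intervals, GFPon minus GFPoff on the left and between genotypes on the right. Filled points passed an adjusted p under 0.05. Ret and Gfra1 lie near -2.58 and -3.01 for NT3-/-Bax-/- minus Bax-/- GFPoff cells, and Gfra3 lies at 1.34 and -1.59 in GFPon cells of Bax-/- and mlcNT3 mice against wild-type.

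In NT3-/-Bax-/- against Bax-/- mice, Ret and Gfra1 were called lower in GFPoff cells. Both genes also had lower means in GFPon cells, where neither was called. Against Bax-/- GFPoff cells, Ret fell by 2.58 and Gfra1 by 3.01 on the log2 scale (8.06-fold for Gfra1) in NT3-/-Bax-/- GFPoff cells, which is 2 of 4 genes and 3 of 11 probe sets, where 21.7% of all were called. Ret read 10.20 and 9.50 against 12.66 and 12.20 (difference -2.58, SE 0.45, adjusted p = 0.00168), and its second probe set gave -2.72 (adjusted p = 0.000299). Gfra1 read 7.06 and 6.71 against 10.52 and 9.28 (difference -3.01, SE 0.31, adjusted p = 7.66e-05). Its fainter probe sets were not called, with means of 4.27 against 5.41 for 1450440_at and 4.93 against 5.08 for 1421973_at. In the probe sets that stand for Ret and Gfra1, the NT3-/-Bax-/- values lay below all 6 other GFPoff arrays of the pooled set. Leaving out 1 array at a time gave -2.93 to -2.24 for Ret and -3.63 to -2.39 for Gfra1, all called. The ends for Gfra1 came from leaving out Bax-/- GFPoff replicate 2 (-3.63) and replicate 1 (-2.39), and the ends for Ret from the NT3-/-Bax-/- arrays. The methods' test at its own threshold called 0 of the 4 genes.

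The other 2 co-receptors differed less between these groups. Gfra2 read 11.44 and 10.60 against 11.39 and 11.74 (difference -0.54, 95% interval -1.23 to 0.14, adjusted p = 0.261). Gfra3 read 11.43 and 11.80 against 11.87 and 12.12 (difference -0.38, 95% interval -0.76 to 0.00, adjusted p = 0.152). Against wild-type GFPoff cells, a comparison that shares the NT3-/-Bax-/- arrays with the one above, 3 of 4 genes and 5 of 11 probe sets were called lower, against 26.5% of all. The differences there were -2.43 for Ret (adjusted p = 0.00197), -3.24 for Gfra1 (adjusted p = 3.22e-05) and -0.59 for Gfra3 (adjusted p = 0.0271). The methods' test called 1 of the 4. The call of Gfra3 was lost on these groups alone (adjusted p = 0.109), without NT3-/-Bax-/- GFPoff replicate 1 (difference -0.40, adjusted p = 0.166) and without either wild-type array. Gfra2 gave -0.48 (95% interval -1.16 to 0.20, adjusted p = 0.288).

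Markers of other cells moved in the same arrays. Against Bax-/- GFPoff cells, 6 of 6 fibroblast markers rose (median log2 difference 4.58, against 0.01 over all probe sets), as did 5 of 5 endothelial markers (median 2.27) and 6 of 8 glial markers, with 1 lower (median 1.43). None of 6 macrophage markers was called, yet their sum was 13.62 in replicate 1 and 8.65 in replicate 2, against 7.66 to 10.26 in the other GFPoff arrays. The summed glial markers read 14.93 and 14.76 against 12.76 to 13.56, and the summed endothelial markers 10.94 and 11.09 against 8.10 to 8.81. The pan-neuronal and nonpeptidergic lists had lower sums. Among 10 pan-neuronal markers 4 fell and none rose (median -0.44), with a sum of 15.49 and 15.16 against 15.85 to 15.97. The nonpeptidergic nociceptor markers summed to 14.12 and 13.73 against 14.65 to 14.86, with 1 of 6 called, Scn10a, a sodium channel of nociceptors, at -3.44. The peptidergic markers, with 1 of 4 called lower, summed to 13.58 and 11.98 against 13.47 to 13.80. P2rx3, an ATP receptor of nonpeptidergic nociceptors, had a mean of 12.93 against 12.84, and Trpv1, the capsaicin receptor, 10.32 against 10.15. Of 6 markers of Ret-positive mechanoreceptors, Nefh (-3.21) and Npy2r (-2.16) fell and Shox2 (1.44) and Ntrk2 (1.22) rose. The proprioceptor markers summed to 9.91 and 10.49 in the NT3-/-Bax-/- GFPoff arrays, against 7.83 to 8.88 in the other pooled GFPoff arrays. In NT3-/-Bax-/- GFPon arrays they summed to 12.21 and 12.69, against 13.49 to 14.22 in the other pooled GFPon arrays. The markers of the sort thus lay closer together in this genotype. The part of these cell-type markers in the values of Ret and Gfra1 was not tested.

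**Figure D4:**
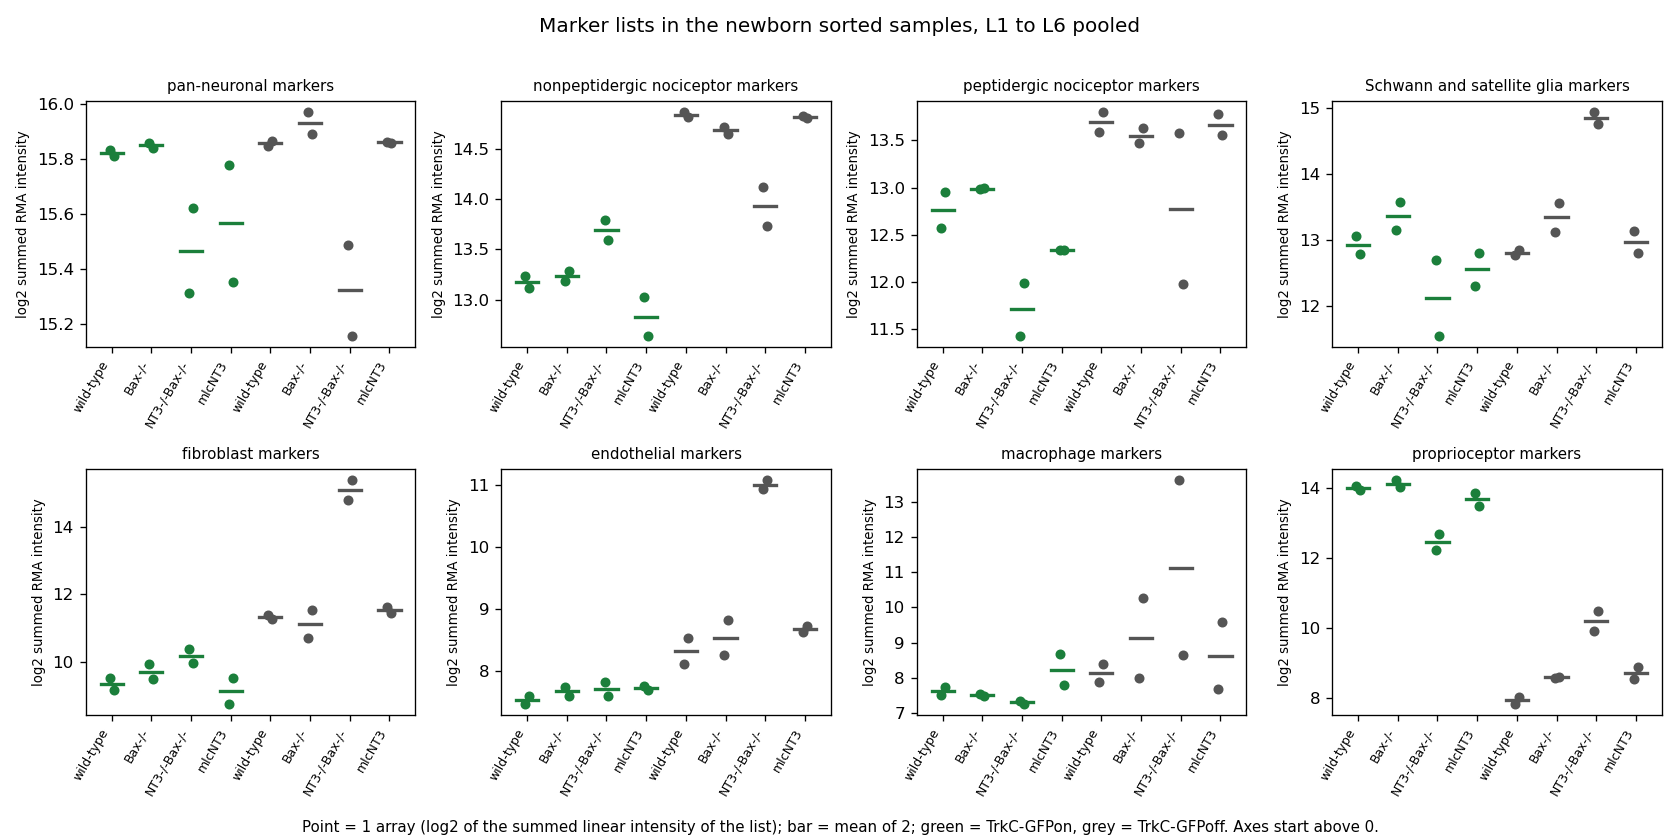
Summed RMA intensity (log2) of 8 marker lists in the 16 pooled newborn arrays, with points for arrays, bars for means of 2 arrays, green for GFPon and grey for GFPoff. The NT3-/-Bax-/- GFPoff arrays have the highest sums of fibroblast (14.80 and 15.40) and endothelial markers (10.94 and 11.09).

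In GFPon cells none of the 4 genes was called between NT3-/-Bax-/- and Bax-/- mice. This was 0 of 11 probe sets by limma, where 18.2% of all were called, with 0 of 4 genes at an unadjusted p under 0.05 and 0 by the methods' test. The differences were -0.68 for Ret (95% interval -1.66 to 0.30), -0.55 for Gfra1 (-1.23 to 0.13), 0.49 for Gfra2 (-0.20 to 1.17) and 0.07 for Gfra3 (-0.31 to 0.45). These intervals leave room for a drop of over 1 log2 unit in Ret and Gfra1, and the narrow one is that of Gfra3. The second probe set of Ret gave -0.78 (adjusted p = 0.162). Pvalb, the calcium buffer that marks proprioceptors, fell by 4.62 in the same comparison. The test of whether the NT3-/-Bax-/- effect differed between GFPon and GFPoff cells called Gfra1 (2.46, SE 0.44, adjusted p = 0.00412), 1 of the 4 genes, against 9.65% of all probe sets. This call was lost when the 4 groups compared were fitted alone (adjusted p = 0.0681), and leaving out 1 array gave 1.84 to 3.08. Ret passed in its second probe set (1.95, SE 0.50, adjusted p = 0.0285) but not in 1436359_at (1.90, SE 0.63, adjusted p = 0.0844). Gfra2 gave 1.03 (adjusted p = 0.188) and Gfra3 0.45 (adjusted p = 0.317). The GFPoff marker shifts above enter this difference as well.

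In GFPon cells Gfra3 was the only member whose standing probe set was called in the 4 comparisons of genotypes run. It read 9.36 and 9.13 in wild-type, 10.68 and 10.50 in Bax-/-, 10.57 and 10.74 in NT3-/-Bax-/-, and 7.64 and 7.66 in mlcNT3 mice. The order in these pooled arrays was therefore mlcNT3, wild-type and then both Bax-deficient genotypes, and the last pair overlapped. In the separate wild-type sorts Gfra3 read 10.34 and 10.51 in L1 GFPon arrays and 9.35 to 10.06 in L5 GFPon arrays. The L1 values thus overlapped those of Bax-/- mice, and the pooled wild-type arrays lay at the low end of all wild-type GFPon arrays. Genotypes were not compared with these separate sorts. Bax-/- minus wild-type was 1.34 (SE 0.17, adjusted p = 0.00965), a 2.54-fold rise that was 1 of 4 genes where 0.5% of all probe sets were called. NT3-/-Bax-/- minus wild-type was 1.42 (adjusted p = 0.000128), 1 of 4 genes where 26% were called. mlcNT3 minus wild-type was -1.59 (SE 0.17, adjusted p = 0.00257), a 3.01-fold drop that was 1 of 4 genes where 0.209% were called. These 3 comparisons share the 2 wild-type GFPon arrays. The Bax-/- call was lost without either of them (adjusted p 0.0701 and 0.13) and when these groups were fitted alone (adjusted p = 0.217). The mlcNT3 call was lost without wild-type replicate 1 (adjusted p = 0.0659) or mlcNT3 replicate 2 (adjusted p = 0.0506). A fit without the NT3-/-Bax-/- GFPoff arrays kept both calls.

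Peptidergic nociceptor markers in the GFPon arrays were read beside Gfra3, since Gfra3 is known from those cells. Their sum was 12.57 and 12.95 in wild-type, 12.98 and 13.00 in Bax-/-, 11.43 and 11.99 in NT3-/-Bax-/-, and 12.34 in both mlcNT3 arrays. In Bax-/- against wild-type 1 of 4 was called, Trpv1 at 1.61 (adjusted p = 0.0149), with a mean of 4.62 in wild-type, 6.23 in Bax-/-, 5.88 in NT3-/-Bax-/- and 5.15 in mlcNT3 mice. In mlcNT3 against wild-type none of the marker lists had a call. The nonpeptidergic markers summed to 13.24 and 13.11 in wild-type and 13.02 and 12.64 in mlcNT3 mice. The summed lists of NT3-/-Bax-/- and mlcNT3 arrays thus lay below both wild-type arrays for the peptidergic markers. The part of these markers in the values of Gfra3 was not tested.

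The other members were not called in GFPon cells between mlcNT3 and wild-type mice, and 3 of the 4 genes, Gfra3 included, had an unadjusted p under 0.05, beside 5.91% of all probe sets. Ret was 1.16 higher (95% interval 0.19 to 2.14, adjusted p = 0.682) and Gfra2 1.13 lower (difference -1.13, 95% interval -1.81 to -0.44, adjusted p = 0.319), each without overlap. The second probe set of Ret gave 0.82 (adjusted p = 0.792), and Gfra1 gave -0.55 (95% interval -1.23 to 0.12). Between Bax-/- and wild-type GFPon cells Ret gave 0.52, Gfra1 -0.17 and Gfra2 -0.09, all with overlapping arrays, and the second probe set of Ret gave the opposite sign, -0.52 (adjusted p = 0.601). Between NT3-/-Bax-/- and wild-type GFPon cells Gfra1 gave -0.72 (95% interval -1.40 to -0.04, adjusted p = 0.115). The standing probe set of Ret gave -0.16 (adjusted p = 0.843), but 1421359_at was called at -1.30 (adjusted p = 0.0168), which made 2 of 11 probe sets. The probe sets of Ret thus disagreed there.

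In GFPoff cells of Bax-/- and mlcNT3 mice no member was called against wild-type by limma. For Bax-/- this was 0 of 4 genes, where 0.178% of all probe sets were called, and for mlcNT3 0 of 4 where 0.00444% were called. No gene reached an unadjusted p under 0.05 or passed the methods' test in either. The differences lay between -0.23 and 0.18 over the 4 genes in both. Ret read 12.20 to 12.66 in all 6 of these GFPoff arrays. The test of a different mlcNT3 effect in GFPon and GFPoff cells called none of the 4, where 0.0422% of all were called. At an unadjusted p under 0.05 it was 2 of 4, beside 5.51% of all probe sets. Its largest value was -1.46 for Gfra3 (SE 0.25, adjusted p = 0.111).

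In the whole adult ganglia Gfra3 was lower at L5 than at L1 in both housing groups, by about 1.5-fold. Without a wheel it read 9.94, 9.91 and 9.64 at L1 and 9.30, 9.18 and 9.17 at L5, a difference of -0.62 (SE 0.11, adjusted p = 0.00533). With a wheel it read 10.00, 9.66 and 9.78 against 9.23, 9.38 and 9.08, a difference of -0.58 (SE 0.11, adjusted p = 0.00609). No L5 array reached an L1 array of its own group. Without a wheel Gfra3 was the only 1 of 4 genes called (3 of 11 probe sets), against 4.68% of all probe sets. With a wheel all 4 genes and 5 of 11 probe sets were called, against 5.43% of all, and the methods' test called 1 of the 4.

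Ret with a wheel read 11.77, 12.31 and 12.35 at L1 and 11.57, 11.76 and 11.57 at L5, a difference of -0.51 (SE 0.13, adjusted p = 0.0384). Its second probe set gave -0.01 there. Without a wheel Ret had a mean of 11.91 at L1, with the lowest array at 11.76, against 11.68, 11.72 and 11.48 at L5, a difference of -0.29 (adjusted p = 0.262), while 1421359_at was called at -0.48 (adjusted p = 0.0238). Each probe set of Ret was therefore called in the housing group where the other was not. Gfra2 read 11.29, 11.41 and 11.50 at L1 and 10.64, 10.81 and 10.83 at L5 with a wheel, a difference of -0.64 (SE 0.11, adjusted p = 0.00295). Without a wheel it read 11.26, 11.51 and 11.59 against 11.25, 11.22 and 10.94, a difference of -0.32 (adjusted p = 0.122), and 1423007_a_at was called at -0.58 (adjusted p = 0.0374).

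Gfra1 went the other way. With a wheel it read 10.24, 10.45 and 10.46 at L1 and 10.82, 10.84 and 10.71 at L5, a rise of 0.41 (SE 0.09, adjusted p = 0.0177). Without a wheel it read 10.30, 10.44 and 10.49 against 10.55, 10.37 and 10.53, a difference of 0.07 (95% interval -0.13 to 0.27). The calls of Ret and Gfra1 with a wheel were not stable. That of Ret was lost on leaving out any 1 of 5 of the 6 arrays (adjusted p 0.0594 to 0.159), and that of Gfra1 with 3 of 6 (adjusted p 0.0632 to 0.0723) and with the replicate number as a block (adjusted p = 0.0514). In these whole ganglia 4 of 5 proprioceptor markers without a wheel and 5 of 5 with one were higher at L5, and 3 of 4 peptidergic nociceptor markers were lower in both housing groups. The nonpeptidergic nociceptor markers, with 2 of 6 lower at L5 with a wheel and none called without one, summed with a wheel to 13.93, 14.33 and 14.32 at L1 and 13.74, 13.85 and 13.69 at L5, and Ret had its lowest L1 value in the same array as this list. That array, wheel L1 replicate 1, also had the lowest pan-neuronal sum of its group, in which the other two read 15.66 and 15.61. The part of these lists in the values of the 4 genes was not tested.

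**Figure D5:**
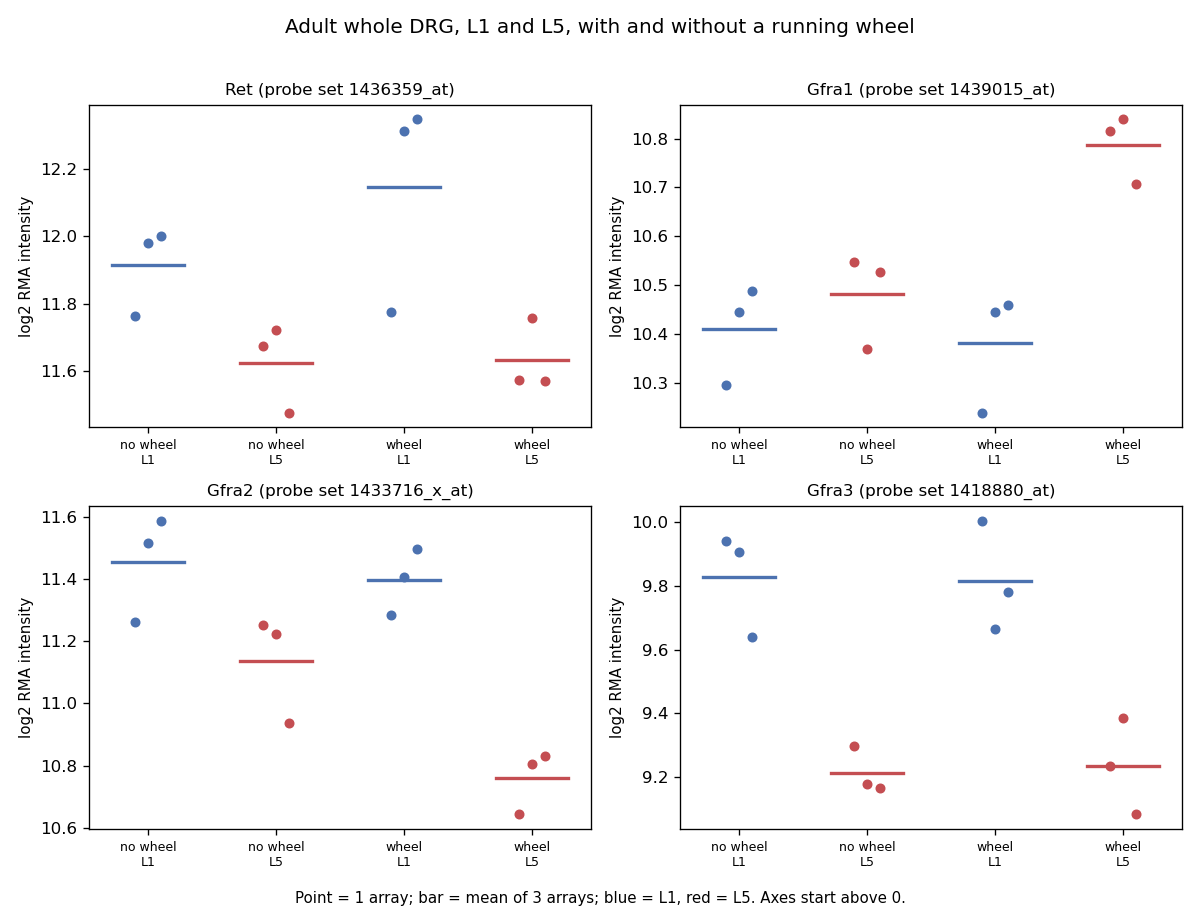
Log2 RMA intensity of the 4 genes in whole adult L1 (blue) and L5 (red) ganglia of mice without and with a running wheel, with points for arrays and bars for means of 3 arrays. Gfra3 is lower at L5 in both housing groups, and Gfra1 in L5 ganglia with a wheel (10.71 to 10.84) lies above the other 9 arrays.

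For running itself no member was called by limma. At L1 0 of 4 genes were called, where 0.242% of all probe sets were, and 0 of 4 had an unadjusted p under 0.05. At L5 0 of 4 were called, where 0.48% were, and the methods' test called 0 at either level. The unadjusted p was under 0.05 at L5 for 2 of 4 genes, beside 16.4% of all probe sets. Those were Gfra1 (difference 0.31, 95% interval 0.11 to 0.50, adjusted p = 0.119) and Gfra2 (difference -0.38, 95% interval -0.61 to -0.14, adjusted p = 0.11), both without overlap. Ret gave 0.23 at L1 (95% interval -0.06 to 0.52) and 0.01 at L5, and Gfra3 -0.01 and 0.02. The test of a different running effect at the 2 levels called none of the 4, nor any probe set (0%), with 1 of 4 genes at an unadjusted p under 0.05, beside 5169 probe sets, or 11.5% of all. That gene was Gfra1, at 0.33 (95% interval 0.06 to 0.61, adjusted p = 0.356).

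The ligands of the family were faint in these ganglia. Group means ran from 3.61 to 4.78 for Gdnf, 4.30 to 4.97 for Artn and 4.29 to 4.67 for Pspn, all under the array medians, and from 6.63 to 7.56 for Nrtn. Of the 4 ligands, Gdnf was called lower in NT3-/-Bax-/- against wild-type GFPon cells (-0.98) and at L5 with a wheel (-0.59), and Artn was called higher in L5 GFPon cells (0.53). In the comparisons that called Gdnf, 26% and 5.43% of all probe sets were called. Among 5 other receptors and binding proteins of the family, 3 were called in NT3-/-Bax-/- against Bax-/- GFPoff cells, where 21.7% of all probe sets were called. Gas1, a membrane protein related to the GFRα co-receptors, rose by 3.20, while Sorl1, a sorting receptor that takes up GDNF, fell by 3.40 and Gfra4, the persephin co-receptor, fell by 0.64. The part of the GFPoff marker shifts given above in these values was not tested. In GFPon cells of the same genotypes Gas1 (2.06), Sorl1 (1.46) and the syndecan Sdc3 (0.54) rose, where 18.2% of all probe sets were called.

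Of 15 measured adaptors that carry the signal from Ret, 2 were lower in wild-type GFPon cells, the docking protein Gab1 (-2.58) and the Ret substrate Dok4 (-1.19), and none was higher (median -0.11, against -0.07 over all probe sets, of which 8.95% were called). The same pair was lower in GFPon cells of Bax-/- (Gab1 -2.37, Dok4 -1.19), mlcNT3 (-3.42, -1.09), L1 (-2.91, -1.38) and L5 sorts (-2.83, -1.48). In NT3-/-Bax-/- against Bax-/- GFPoff cells 5 of 15 fell, among them Dok4 (-2.22) and Dok1 (-2.05), and 2 rose, Grb10 (1.58) and Dok5 (0.79), where 21.7% of all probe sets were called. Gab1 was not among them, but it rose by 2.51 in GFPon cells of the same comparison. In the adult ganglia Dok1 was lower at L5 in both housing groups (-0.37 in each).

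The genes whose levels ran most like those of each member were taken by Pearson correlation over the 16 pooled newborn arrays, among 11357 genes with a group mean of at least 7. For Ret these were led by Slc45a3 (r = 0.941) and Casp1 (r = 0.939), and for Gfra1 by Kcng1 (r = 0.988) and Galnt5 (r = 0.979). For Gfra2 the highest was Get4 (r = 0.927) and for Gfra3 Plxnb1 (r = 0.963). Over the 11 arrays of the L1 and L5 sorts, which the choice did not use, the correlations were 0.968 for Slc45a3, 0.987 for Casp1, 0.889 for Kcng1, 0.990 for Galnt5, 0.845 for Get4 and 0.960 for Plxnb1. These are descriptions. The arrays form 8 and 4 groups that share the sort, so a gene that separates GFPon from GFPoff cells can correlate with a member through the sort alone.

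The Gfra1 promoter was searched for the core motif of the RUNX factors, of which Runx1 marks nociceptors and Runx3 proprioceptors. In the RefSeq window of 300 bases around its start (GRCm38.p6, chr19:58455349-58455648, minus strand) neither TGTGGT nor TGCGGT occurred on either strand, and 22.4% of 32851 promoter windows of this length held at least 1 of them.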

How the data were processed

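RNA was profiled on 39 Affymetrix arrays. The authors deposited RMA intensity values on a linear scale, made with the affy package in R 2.9 per the labels' processing notes, which also name MAS5. A joint normalization of all arrays is not stated in the sources used here. The array number limits the precision. Here values were log2-transformed and 64 control probe sets left out. limma 3.58.1 (R 4.3.3) was fitted separately to the 16 pooled, 11 L1 and L5 and 12 adult arrays with 1 mean per group, moderated variances and Benjamini-Hochberg adjustment over 45037 probe sets. What is called the methods' test here is a t-test per probe set between the groups compared. It asks for p no higher than 0.02 and at least a 1.5-fold change. It takes up only part of the study's criteria. Some of the study's lists came from ANOVA, and some required a larger fold change. Calls and missing calls of the methods' test are therefore not results of the study. Of the probe sets, 34945 name 1 gene, 932 several and 9160 none.

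The table was expected to be on a log2 scale and proved linear, so the transformation was added. Members and lists were chosen with earlier results of these data known, and the pan-neuronal list and the fit without NT3-/-Bax-/- GFPoff arrays were added after the data were seen. Named genes were the members' probe sets and, per list, up to 6 called genes of largest difference and genes that define a cell type. Marker lists covered proprioceptors, both nociceptor classes, Ret-positive mechanoreceptors, glia, fibroblasts, endothelium, macrophages and all neurons. A list sum adds linear intensities over its genes. Scripts were tested on simulated data. Alternatives were another probe set per gene, quantile normalization, median centring, a constant added before log2, a filter on dim probe sets, trended and robust variances, the compared groups alone, the methods' test, a replicate block and leaving out each array.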

Additional observations from a re-analysis of the deposited data

Results flagged for a closer look

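The log2 difference NT3-/-Bax-/- minus Bax-/- was not the same in GFPon and GFPoff cells for Gfra1 (difference of the differences 2.46, SE 0.44, limma adjusted p = 0.0041). The same held for probe set 1421359_at of Ret (1.95, SE 0.50, adjusted p = 0.0285). The higher fibroblast, endothelial and glial markers of the NT3-/-Bax-/- GFPoff arrays enter these differences, and their part was not tested. Gfra1 was not called when only the 4 groups compared were fitted (adjusted p = 0.0681). Both were picked out by this test of the difference between the populations. No group had the 4 or more arrays that a test for a single deviating array needs.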

How the results depend on the processing

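No called difference changed sign under any alternative. Of the 63 differences that were not called, 26 took the other sign in at least 1 setting. Of the 24 counts of called genes, those that moved beyond 1.5 times did so as follows. After Benjamini-Hochberg adjustment the methods' test left 0 called in GFPon minus GFPoff of all 4 pooled genotypes (from 3 in wild-type, 3 in Bax-/-, 1 in NT3-/-Bax-/-, 4 in mlcNT3), in NT3-/-Bax-/-, Bax-/- and mlcNT3 minus wild-type GFPon (from 1 each), in NT3-/-Bax-/- GFPoff minus Bax-/- (from 2) and wild-type GFPoff (from 3), and in adult L5 minus L1 (from 1 without and 4 with a wheel). At its own threshold it called 1 in Bax-/-, 0 in NT3-/-Bax-/- and 2 in mlcNT3 GFPon minus GFPoff, 0 and 1 in NT3-/-Bax-/- GFPoff minus Bax-/- and wild-type, and 1 in wheel L5 minus L1. Fitting only the groups compared gave 1 for Bax-/- and 0 for NT3-/-Bax-/- GFPon minus GFPoff, 0 for Bax-/- minus wild-type GFPon, 0 for the NT3 and 1 for the mlcNT3 interaction. The probe set of largest variance gave 2 for NT3-/-Bax-/- minus wild-type GFPon, 2 for the NT3 interaction, and 3 without and 2 with a wheel for adult L5 minus L1. limma at the methods' threshold gave 2 for mlcNT3 minus wild-type GFPon, 2 and 1 for the NT3 and mlcNT3 interactions, 1 for newborn GFPon L5 minus L1 and its interaction, and 1 for wheel L5 minus L1. Trended variances gave 1 for newborn GFPon L5 minus L1. Quantile normalization gave 2 for adult L5 minus L1 without a wheel and 1 for running at L5. Leaving out 1 array gave 2 to 3 for mlcNT3 GFPon minus GFPoff, 0 to 1 for NT3-/-Bax-/- minus Bax-/-, Bax-/- minus wild-type and mlcNT3 minus wild-type GFPon, 1 to 2 for the NT3 interaction, 0 to 1 for newborn GFPon L5 minus L1 and 2 to 3 for wheel L5 minus L1. The causes were not tested.

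Same-numbered GFPon and GFPoff arrays had deviations correlating at 0.197, 0.283, 0.158 and 0.008 in wild-type, Bax-/-, NT3-/-Bax-/- and mlcNT3 mice. With 2 arrays a group, arrays of unlike number give the same value with the sign reversed. These values therefore cannot settle a pairing. Same-numbered arrays gave 0.085 to 0.203 in the L5 sorts, against -0.141 to 0.044 for the others. At L1 they gave -0.070 to 0.006, against -0.076 to 0.076. The main fit did not take the numbers as pairs. With the replicate block the only call lost was Gfra1 in wheel L5 minus L1 (0.41, adjusted p = 0.0514), and its count was 3. Groups of 2 or 3 arrays, GFPon values of Gfra1 below the array medians at L1 and L5 and x_at probe sets for Gfra2 limit these results.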
